A study of Mus musculus with 19 samples.

Results

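The comparison set CD8 T cells carrying Stat5ca, a version of the transcription factor Stat5 that is always on, recovered after transfer into mice, against naive CD8 T cells. It rested on 8 of the 19 arrays in the series, chosen by their labels: 4 of transferred Stat5ca cells (arrays 11 to 14) and 4 of naive cells (arrays 33 to 36). All 19938 genes named by a probe set were tested. Both groups were CD8 T cells of TCRP1A mice, whose T-cell receptor is a transgene and which are Rag-1-/- with a B10.D2 background. The Stat5ca cells had been stimulated with their cognate antigen, transduced with Stat5ca, transferred into congenic hosts and taken back from spleen and lymph nodes. Their labels give recovery on day 20, while the description of the series puts it later than day 20. Naive cells had been through none of these steps, so activation, transduction, transfer and active Stat5 cannot be told apart here. To show where the transferred Stat5ca cells differed from related cells, the text also uses TCRP1A control cells recovered after transfer (arrays 30 and 32, days 18 and 120), for which the labels name no transduction, and Stat5ca cells after 72 h in culture (arrays 9 and 10, labelled GFP+). Nothing in the labels ties an array to its own animal or culture, so the p-values reflect only how far these arrays scatter, and that scatter may be technical.

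Stat5 proteins lie downstream of the receptors for IL-2, IL-7 and IL-15, cytokines on which CD8 T cells depend for growth and survival. Janus kinases bound to those receptors phosphorylate Stat5, which then pairs up, enters the nucleus and binds target genes, among them its own feedback inhibitors of the CIS and SOCS family. A CD8 T cell that has met its antigen turns into an effector cell that carries granzymes, perforin and Fas ligand and secretes interferon-gamma. A naive cell instead expresses genes of quiescence and of homing to lymphoid organs.

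Values are deposited log2 signals, on which a difference of 1 is 2-fold, and differences were tested with limma. Each gene is given by its brightest probe set and calls were made where the p adjusted over all genes (Benjamini-Hochberg) was under 0.05. Values are listed in the order of the arrays, 11 to 14 for Stat5ca cells and 33 to 36 for naive cells. A level of 7.33, the 95th percentile of 1194 olfactory and vomeronasal receptor genes, served as the background. A group mean under it is only a bound; for such a gene the difference from naive cells is also given counted from the background.

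The arrays did not all sit together within their group. Stat5ca arrays 11, 12 and 14 correlated with each other at Pearson's r of 0.9964 to 0.9976 across genes, and array 13 correlated with them at 0.9923 to 0.9931. Among naive arrays, 34 and 36 correlated at 0.9954 and 33 and 35 at 0.9871, against 0.9533 to 0.9695 between the pairs. The mean of 23 macrophage and monocyte marker genes was 10.23, 10.32, 9.43 and 10.30 in Stat5ca arrays, against 7.83, 11.52, 8.64 and 11.33 in naive arrays. Naive arrays 34 and 36 also had the high neutrophil means, 12.22 and 12.07, against 6.94 and 7.53 in arrays 33 and 35. Y-linked genes were high in Stat5ca array 13 alone among the 4 Stat5ca arrays, with Eif2s3y at 10.44, and the X-linked Xist was lowest there, at 10.09. Against transferred control cells, Eif2s3y differed by −3.81 without control array 30 and −3.22 without control array 32. Against Stat5ca cells at 72 h it differed by −2.87 without array 9 and −4.31 without array 10. No measured sex gene was called in either contrast. For some lists and genes, results are also given without naive arrays 33 and 35 or without naive arrays 34 and 36. Results of lists and genes without Stat5ca array 13 are not given. The means of 12 T-cell identity genes were 12.31, 12.32, 12.28 and 12.34 in Stat5ca arrays and 12.43, 12.17, 12.52 and 12.14 in naive arrays. Of these genes 2 were called lower. Without naive arrays 34 and 36, 4 were lower, and without naive arrays 33 and 35, 2 were higher. Of 12 B cell markers, 6 had both group means under background, and Cd79b was at 9.53 to 9.91 in Stat5ca arrays and 9.58 to 10.33 in naive arrays. CD8 chain gene Cd8b1 averaged 13.56 ± 0.05 in Stat5ca cells and 13.56 ± 0.11 in naive cells (SD, n = 4 each).

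In transferred Stat5ca cells, 3156 genes rose and 2543 fell relative to naive cells, 28.6% of all genes tested (15.8% higher, 12.8% lower). With each array centred on its median the split was 3794 higher and 1483 lower, so the balance of rises and falls depended on the scaling. Changes of at least 2-fold were called in 644 genes, 3.23% of all, with 459 higher and 185 lower. The 4 Stat5ca and 4 naive arrays did not overlap for 28.2% of genes. Among the largest rises were Klra5, Gzmb, Ifng, Fasl, Klrc1, Klrc3, Lrrc32, Klrc2, Socs2, Ifitm1, Il2ra and Klrk1. Klra5, Fasl, Klrc2 and Klrc3 had naive means under background, so their place in this order is not known. They encode killing molecules, lectin-like receptors of the natural killer family, interferon-gamma, the IL-2 receptor alpha chain and a SOCS protein. The plot of list shares shows how often the members of each gene list were called.

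**Figure D1:**
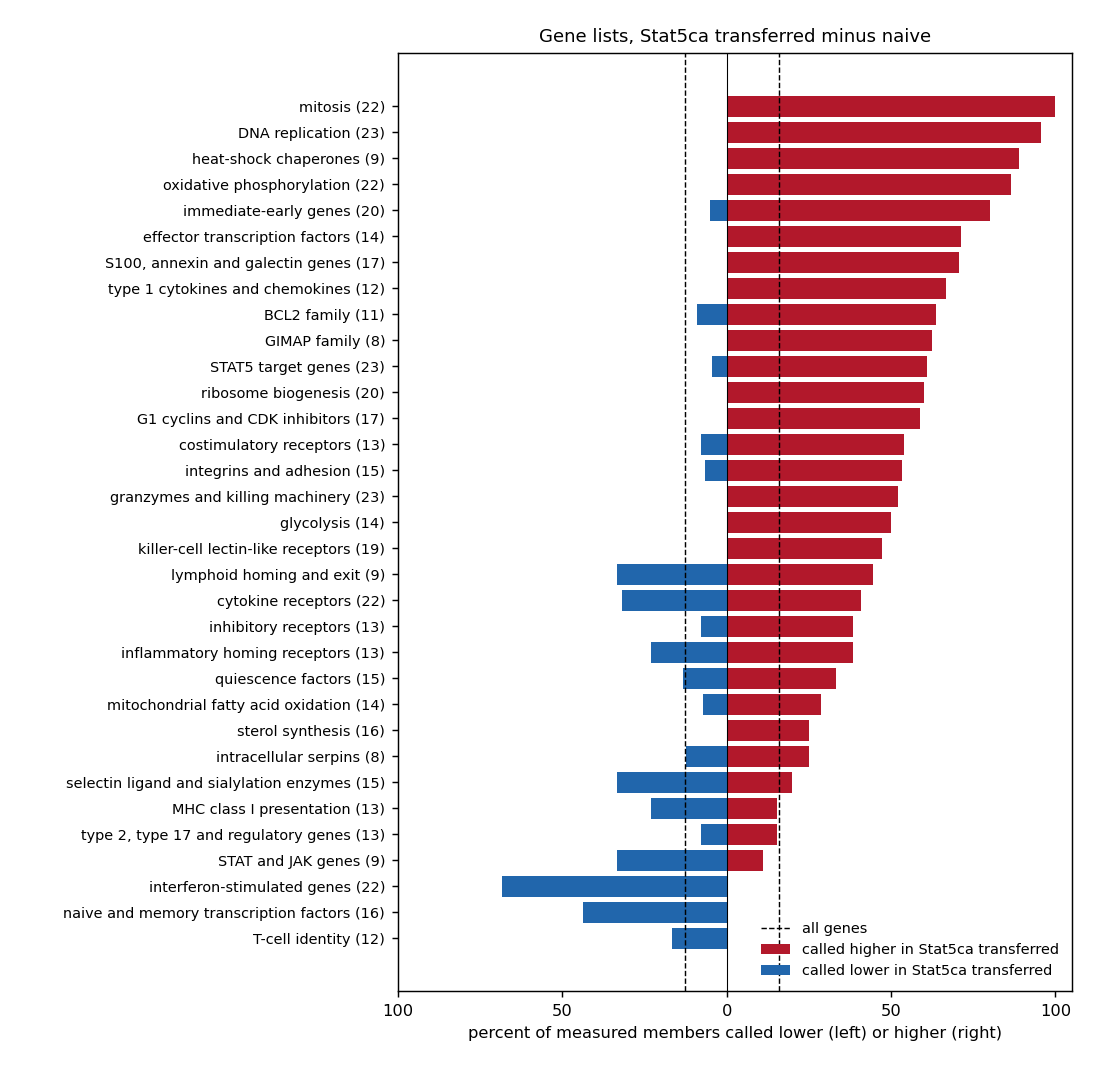
Percent of the measured members of each of 33 gene lists that were higher (right, red) or lower (left, blue) in transferred Stat5ca cells than in naive cells, at an adjusted p under 0.05 with limma (4 arrays each). Dashed lines mark the shares over all genes tested, 15.8% higher and 12.8% lower; mitosis, DNA replication and oxidative phosphorylation lie far to the right, and interferon-stimulated genes lie to the left.

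Stat5a itself was higher in the Stat5ca cells. Its signal was 11.81, 11.65, 11.73 and 11.54 in Stat5ca arrays, against 10.43, 10.21, 10.62 and 10.29 in naive arrays. The 4 Stat5ca arrays all lay above the 4 naive arrays, by 1.30 ± 0.10 (adjusted p = 4.32e-07). Whether this probe set reads the transduced gene, the cell's own gene or both was not tested. Stat5b, the neighbouring gene for the closely related protein, was lower: 10.25, 10.19, 10.13 and 10.34 in Stat5ca arrays, against 10.89, 10.68, 10.89 and 10.59 in naive arrays (−0.53 ± 0.10, adjusted p = 0.000743). Of the other measured STAT and JAK genes, Stat2 (−0.45 ± 0.10) and Stat3 (−0.34 ± 0.09) fell, while Stat4, Stat6, Jak1, Jak2 and Tyk2 were not called. In these bulk samples, a smaller share of a cell type and less RNA per cell cannot be told apart, which holds for every difference below.

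Some genes known as Stat5 targets carry in their promoters the palindrome that Stat5 recognises, TTCNNNGAA, and 4 are shown because these genes, though they share the motif, were called in different ways. RefSeq promoters (GRCm38.p6, 250 bases before to 50 after each start) were read on the gene's strand; the palindrome reads alike on both strands. It was found in 8.3% of 32851 promoter windows, and at least 2 copies in 0.457%. Counted by gene, 9.55% of 27025 genes with a window held it in any of their windows. Of 24 listed Stat5 target genes, 19 had a window and 6 of these held the palindrome: Cish, Socs3, Lta, Foxp3, Bcl6 and Il7r. Capitals mark the palindromes. The Cish stretch is chr9:107296654-107296683 on the plus strand, with palindromes that begin at bases 1 and 12 after the start. Socs3 is chr11:117969477-117969555 on the minus strand, Il7r is chr15:9529975-9530053 on the minus strand and Bcl6 is chr16:23981348-23981466 on the minus strand.
Cish: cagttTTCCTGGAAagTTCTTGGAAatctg
Socs3: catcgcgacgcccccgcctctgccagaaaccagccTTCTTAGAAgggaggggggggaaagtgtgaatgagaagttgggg
Il7r: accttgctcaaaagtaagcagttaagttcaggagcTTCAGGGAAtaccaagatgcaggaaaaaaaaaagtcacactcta
Bcl6: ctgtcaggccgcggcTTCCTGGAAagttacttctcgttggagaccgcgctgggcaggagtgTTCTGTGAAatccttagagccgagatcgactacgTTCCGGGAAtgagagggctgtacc
Of these 4 genes, Cish rose, Il7r fell, and Socs3 and Bcl6 were not called. Among the target genes that rose, 10 had a window and 1, Cish, held the palindrome. A match is a description of the letters and not of binding.

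The Stat5 target list had 23 measured genes, of which 14 were called higher and 1 lower (15.8% and 12.8% of all genes). Its median log2 difference was 0.82, beside −0.05 over all genes. Cish, which encodes the inhibitor CIS, had 12.03, 12.04, 11.99 and 12.09 in Stat5ca arrays, against 8.43, 8.02, 8.89 and 8.68 in naive arrays. The groups lay far apart, by 3.53 ± 0.16 (adjusted p = 1.42e-09). Socs2 had 12.73, 12.87, 12.83 and 12.80 in Stat5ca arrays, against 8.33, 8.88, 10.40 and 8.55 in naive arrays (3.77 ± 0.32, adjusted p = 8.74e-07); naive array 35 was the highest of its group and still well under every Stat5ca array. Socs1 rose by 1.36 ± 0.16, whereas Socs3 differed by −0.16 ± 0.28 (adjusted p = 0.709) and its arrays overlapped.

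Receptor chains of IL-2 and survival and growth genes rose with them. Il2ra, the alpha chain that raises the affinity for IL-2, had 12.06, 12.20, 12.50 and 12.24 in Stat5ca arrays, against 8.41, 8.13, 9.65 and 8.04 in naive arrays (3.69 ± 0.29, adjusted p = 3.72e-07). Il2rb, the beta chain shared by the IL-2 and IL-15 receptors, had 13.42, 13.40, 13.42 and 13.41 in Stat5ca arrays, against 11.05, 11.22, 11.33 and 11.32 in naive arrays. Its Stat5ca arrays were nearly the same and its difference of 2.18 ± 0.07 had the smallest error of the list (adjusted p = 5.75e-11). The kinase gene Pim1 rose by 1.80 ± 0.20, the survival genes Bcl2l1 by 1.74 ± 0.24 and Bcl2 by 0.88 ± 0.13, the cell-cycle kinase gene Cdk6 by 1.74 ± 0.13 and Myc by 1.17 ± 0.13. The fall was that of Il7r, the IL-7 receptor alpha chain, with 11.91, 11.94, 11.36 and 11.95 in Stat5ca arrays, against 12.57, 12.48, 12.52 and 12.40 in naive arrays (−0.70 ± 0.16, adjusted p = 0.00493). Pim2, Mcl1, Ccnd2, Il4ra, Lta, Foxp3 and Bcl6 were not called.

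The direct contrast of transferred Stat5ca with transferred control cells uses no naive array. In it 11 of the 23 target genes were higher and 2 lower in Stat5ca cells, where 16.9% of all genes were higher and 8.46% lower. Cish was higher by 2.79 ± 0.19 (control arrays 9.17 and 9.33, adjusted p = 7.22e-07), Socs2 by 3.16 ± 0.39 (9.78 and 9.51, adjusted p = 8.83e-05) and Il2ra by 2.99 ± 0.35 (9.05 and 9.48, adjusted p = 5.89e-05). Socs1 (1.85 ± 0.20), Myc (1.08 ± 0.16) and Il2rb (0.73 ± 0.09) were also higher. The 12 T-cell identity genes had a median of 0.65 in this contrast, with 10 higher, which is near the difference of Il2rb. The 2 that were lower were Il7r (−1.32 ± 0.20) and Bcl6 (−1.19 ± 0.16), which encodes a repressor. Pim1, Bcl2l1 and Nfil3, all higher than in naive cells, were not called against control cells (0.58 ± 0.25, 0.33 ± 0.29 and 0.77 with an adjusted p of 0.0909). For Bcl2l1 the control arrays lay apart, at 9.18 and 10.74; without control array 32 it was higher by 1.12 (adjusted p = 0.00311), and without control array 30 the difference was −0.45 (adjusted p = 0.151).

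**Figure D2:**
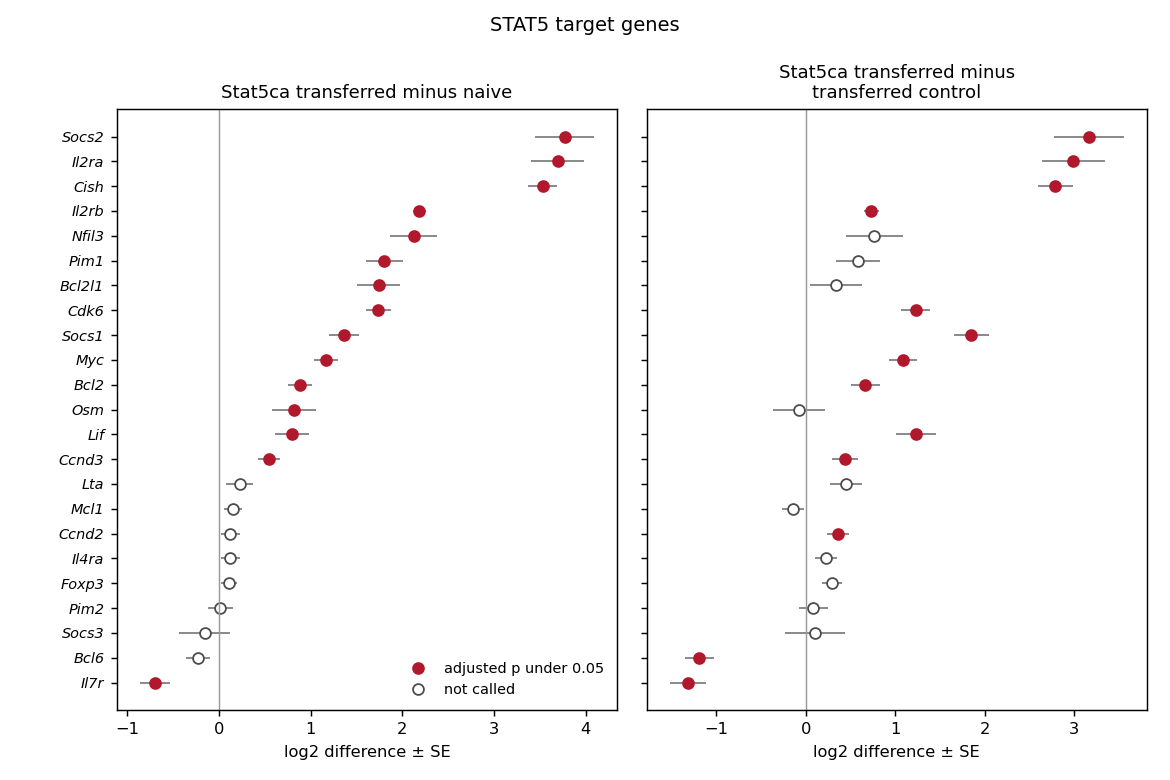
Log2 differences (SE as bars) of 23 Stat5 target genes in transferred Stat5ca cells, against naive cells in the left panel and against transferred control cells in the right panel; filled points have an adjusted p under 0.05. Socs2, Il2ra and Cish lie at 3.53 or more against naive cells and at 2.79 or more against control cells.

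Of 23 measured genes of the killing machinery, 12 rose and the other 11 were not called (15.8% of all genes rose), with a median difference of 0.45. Without naive arrays 33 and 35, 12 rose and 4 fell. Gzmb, the protease granzyme B that starts apoptosis in the target cell, had 13.57, 13.65, 13.80 and 13.61 in Stat5ca arrays, against 6.86, 8.75, 8.13 and 8.37 in naive arrays. Its groups differed by 5.63 ± 0.29 (adjusted p = 5.91e-09), with naive array 33 the lowest. Fasl, the ligand of the death receptor Fas, had 11.43, 11.57, 11.72 and 11.67 in Stat5ca arrays, against 7.15, 7.43, 7.08 and 7.26 in naive arrays. The naive level was background, and the difference of 4.37 ± 0.26 was 4.27 counted from it (adjusted p = 1.94e-08).

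Granzyme genes Gzma, Gzmm and Gzmk rose as well. Gzma, granzyme A, had 12.56, 12.75, 13.27 and 12.86 in Stat5ca arrays, against 8.18, 10.17, 9.88 and 9.91 in naive arrays (3.32 ± 0.33, adjusted p = 5.16e-06). Gzmm, granzyme M, rose by 3.09 ± 0.12 with 7.94 ± 0.10 in naive cells, and Gzmk, granzyme K, rose by 3.03 ± 0.26 with 11.26, 11.28, 12.25 and 11.31 in Stat5ca arrays. Stat5ca array 13 was the highest for Gzma and Gzmk. Prf1, perforin, the pore former that lets granzymes in, rose by a smaller amount: 10.95, 11.01, 11.10 and 10.94 in Stat5ca arrays, against 10.10, 9.98, 10.23 and 9.96 in naive arrays (0.93 ± 0.13, adjusted p = 9.47e-05). The granule genes Ctsw (1.17 ± 0.11) and Nkg7 (0.85 ± 0.08) rose too. Gzmc rose by 1.19 ± 0.27, of which 0.12 lay above background. Gzmd, Gzme, Gzmf and Gzmg lay under background in both groups, and the lysosomal genes Lamp1 and Lamp2 were not called.

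Several granzyme genes also differed from the related groups. Relative to transferred control cells, Gzma was higher by 4.16 ± 0.41 (control arrays 9.04 and 8.37, adjusted p = 1.59e-05), Gzmb by 3.29 ± 0.35 (10.42 and 10.32, adjusted p = 3.03e-05), Gzmk by 3.25 ± 0.32 (8.21 and 8.33) and Gzmm by 2.43 ± 0.15 (8.97 and 8.23). Fasl was higher by 1.69 ± 0.31, with control array 32 at 10.63 and control array 30 at 9.17; without array 30 the difference was 0.97 (adjusted p = 0.0319). Against Stat5ca cells at 72 h, Gzma was higher by 4.43 ± 0.41 (72 h arrays 8.73 and 8.12), Gzmm by 3.39 ± 0.15 and Prf1 by 2.38 ± 0.16 (8.43 and 8.82, adjusted p = 1.85e-07). Gzmb had 13.25 and 13.17 at 72 h and was not called, with a difference of 0.45 ± 0.35 (adjusted p = 0.457).

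**Figure D3:**
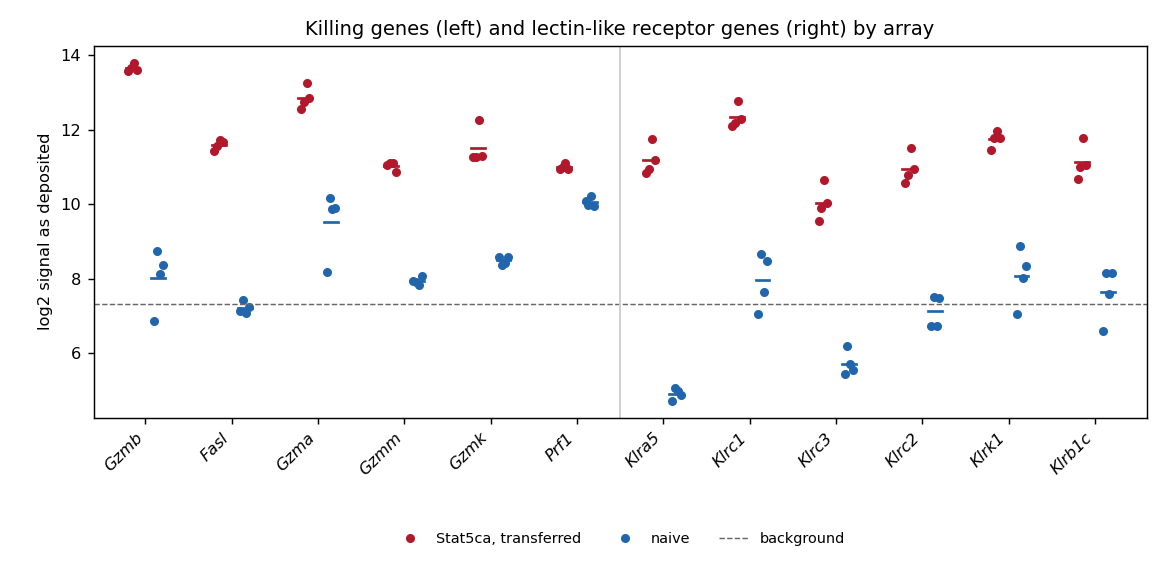
Log2 signal of 6 killing genes and 6 lectin-like receptor genes in each transferred Stat5ca array (left of each pair) and each naive array (right), with group means as lines and the background of 7.33 dashed. No naive array reaches any Stat5ca array for these genes, and the naive arrays of Klra5 and Klrc3 all lie under background.

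Killer-cell lectin-like receptors, which natural killer cells use to read MHC class I and stress ligands and which some effector CD8 T cells also carry, were higher in part. Of 19 measured members 9 rose and 10 were not called (15.8% of all genes rose), with a median of 0.42. Of the 19, 6 lay under background in both groups. Without naive arrays 34 and 36, 14 rose, and without naive arrays 33 and 35, 9 rose and 4 fell. Klra5, of the Ly49 family, had 10.85, 10.96, 11.76 and 11.19 in Stat5ca arrays, against 4.73 to 5.06 in the 4 naive arrays. All naive arrays were under background, and the difference of 6.27 ± 0.17 was 3.86 counted from it (adjusted p = 8.86e-12). Members of this family are close in sequence, and cross-hybridisation between their probe sets was not tested.

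The NKG2 genes Klrc1, Klrc2 and Klrc3, whose products pair with CD94, rose together. Klrc1, the inhibitory NKG2A, had 12.11, 12.18, 12.78 and 12.29 in Stat5ca arrays, against 7.06, 8.67, 7.66 and 8.47 in naive arrays (4.37 ± 0.30, adjusted p = 9.66e-08). Klrc2 rose by 3.83 ± 0.24 and Klrc3 by 4.30 ± 0.24, or 3.62 and 2.70 counted from background. Klrd1, CD94 itself, averaged 12.24 ± 0.24 in Stat5ca cells and 11.24 ± 0.25 in naive cells (SD, n = 4 each) and rose by 1.01 ± 0.14 (SE). Klrk1, the activating receptor NKG2D, had 11.45, 11.78, 11.97 and 11.77 in Stat5ca arrays, against 7.05, 8.88, 8.03 and 8.34 in naive arrays (3.66 ± 0.27). Klrb1c, with 10.69 to 11.78 in Stat5ca arrays against 6.61 to 8.17 in naive arrays (adjusted p = 9.02e-07), Klre1 (3.42 ± 0.19, 1.33 counted from background) and Klrg1, a marker of short-lived effector cells (2.82 ± 0.33), completed the rises.

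Natural killer cell markers did not all follow. Ncr1, NKp46, had 8.40, 8.62, 10.39 and 8.84 in Stat5ca arrays, against 7.53, 10.52, 9.18 and 10.00 in naive arrays, with overlap (−0.25 ± 0.53, adjusted p = 0.767). Of 8 natural killer cell markers, 3 rose (15.8% of all genes rose), Klrb1c, Il2rb and Khdc1a, the last with both group means under background. Ncr1, Klra8, Cd244a, Tyrobp and Fcer1g were not called. The mean over the 8 genes was 9.71 to 10.30 in Stat5ca arrays, and at most 9.73 in naive arrays, with array 33 the lowest. Without naive arrays 34 and 36, 6 of the 8 rose, and without naive arrays 33 and 35, 3 rose and 4 fell. The part of natural killer cells in these levels was not tested.

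In the contrast with transferred control cells, 8 of the 19 receptor genes were higher and 2 lower (16.9% and 8.46% of all genes). Klra5 was higher in Stat5ca cells (adjusted p = 7.63e-10), with control arrays under background at 5.54 and 5.54. Klrg1 (7.11 and 6.88, adjusted p = 5.49e-05) and Klre1 (5.18 and 5.47, adjusted p = 7.22e-07) were also higher, with control arrays under background. Klrb1c was higher by 3.40 ± 0.36 (8.00 and 7.47). Klrk1 was high in the control cells too, at 11.14 and 11.32, and differed by 0.51 ± 0.33 (adjusted p = 0.304). Against Stat5ca cells at 72 h, 11 of the 19 were higher and the other 8 were not called (8.61% of all genes were higher), among them Klrc1, with 72 h arrays under background at 6.14 and 5.72 (adjusted p = 4.24e-08).

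Cytokine and chemokine genes of type 1 responses rose: 8 of 12 were called higher (15.8% of all genes), with a median of 1.17. Ifng, interferon-gamma, had 13.33, 13.47, 13.24 and 13.51 in Stat5ca arrays, against 7.92, 8.38, 8.57 and 8.47 in naive arrays. All Stat5ca arrays were far above, by 5.05 ± 0.25 (adjusted p = 4.05e-09). Tnf rose by 1.79 ± 0.20, the chemokine genes Ccl5 by 2.06 ± 0.19 and Ccl4 by 1.32 ± 0.14. Ccl3, which macrophages also make, had 12.73, 12.66, 12.25 and 12.82 in Stat5ca arrays, against 7.86, 11.19, 9.33 and 10.89 in naive arrays, high in naive arrays 34 and 36 with the myeloid markers (2.80 ± 0.59, adjusted p = 0.00234). Ccl3 rose by 4.02 without naive arrays 34 and 36, and by 1.57 without naive arrays 33 and 35. Ifng was also higher than in transferred control cells, by 1.56 ± 0.31 (11.72 and 11.93), and than in Stat5ca cells at 72 h, by 3.76 ± 0.31 (10.42 and 8.84).

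Transcription factors moved in opposite directions by class. Of 14 effector factors, 10 rose (15.8% of all genes rose), with a median of 1.45. Of 16 measured naive and memory factors, 7 fell (12.8% of all genes fell), with a median of −0.28. Tbx21, which encodes T-bet, a driver of effector fate, had 11.77, 11.77, 11.97 and 11.81 in Stat5ca arrays, against 8.10, 8.63, 8.63 and 8.81 in naive arrays (3.29 ± 0.12, adjusted p = 1.92e-10). Eomes, its relative, had 11.77, 11.91, 11.82 and 11.86 in Stat5ca arrays, against 8.34, 8.84, 8.98 and 8.63 in naive arrays (3.14 ± 0.36, adjusted p = 1.68e-05). Both were thus high at once in every Stat5ca array. Bhlhe40 rose by 3.51 ± 0.36, Nfil3 by 2.12 ± 0.26, Irf4 by 2.10 ± 0.21, Hopx by 1.86 ± 0.13 and Prdm1, Blimp-1, by 1.70 ± 0.31. Id2 rose by 1.20 ± 0.23, and by 0.70 without naive arrays 33 and 35. Zeb2 was at 9.28 to 9.96 in Stat5ca arrays, against 7.23, 10.17, 8.22 and 9.97 in naive arrays, and was not called.

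Among the factors of naive and memory cells, Lef1, a partner of beta-catenin, had 10.90, 10.71, 10.71 and 10.93 in Stat5ca arrays, against 12.58, 12.23, 12.61 and 12.32 in naive arrays. The groups did not overlap (−1.62 ± 0.10, adjusted p = 5.4e-08). Tox fell by 1.36, Myb by 0.99, Id3 by 0.85 and Bach2 by 0.84 on the log2 scale, with SE of 0.12 to 0.15. Klf2, Foxp1, Satb1 and Ets1 were not called. Relative to transferred control cells, Tbx21 was higher by 0.70 ± 0.15 (11.24 and 11.01) and Eomes by 1.78 ± 0.44 (10.47 and 9.65), but neither was called without control array 32 (0.59, adjusted p = 0.0642, and 1.37, adjusted p = 0.126). The 12 T-cell identity genes had a median of 0.65 in the contrast with control cells, near the difference of Tbx21. Of the 16 naive and memory factors, 5 were higher than in control cells and 1, Bcl6, was lower (16.9% and 8.46% of all genes). Tox was among the higher ones, by 0.83 ± 0.18 (8.78 and 8.21, adjusted p = 0.00314), and was not called without control array 32 (0.55, adjusted p = 0.0918). Lef1 (−0.19), Myb (0.08), Id3 (0.02) and Bach2 were not called, with adjusted p from 0.318 to 0.997. Against Stat5ca cells at 72 h, Lef1 (−1.64 ± 0.13), Myb (−2.75 ± 0.18) and Id3 (−2.43 ± 0.17) were lower.

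Of 9 measured genes of lymphoid homing and exit, 4 were higher and 3 lower. Of 13 inflammatory homing receptor genes, 5 were higher and 3 lower. Over all genes 15.8% were higher and 12.8% lower. Ccr9, the receptor that draws naive CD8 T cells and thymocytes toward the gut chemokine CCL25, had 8.00, 7.98, 8.63 and 7.73 in Stat5ca arrays, against 12.52, 11.93, 12.64 and 11.83 in naive arrays. The groups did not overlap (−4.14 ± 0.33, adjusted p = 4.23e-07), and among called genes Bpifa2 alone fell further. Itgae, the integrin CD103 that binds E-cadherin, fell by 2.29 on the log2 scale (SE 0.27). Cxcr3, which guides effector cells to interferon-induced chemokines, had 12.26, 12.22, 12.20 and 12.21 in Stat5ca arrays, against 9.00, 9.41, 9.25 and 9.34 in naive arrays (2.97 ± 0.16, adjusted p = 9.31e-09). Ccr2 rose by 2.73 ± 0.31, S1pr5 by 2.00 ± 0.28 and Cx3cr1 by 1.41 ± 0.26. Ccr7, the receptor for entry into lymph nodes, stayed high, at 12.97 ± 0.26 in Stat5ca cells and 13.26 ± 0.20 in naive cells, and was not called (adjusted p = 0.106).

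Some integrin and glycan enzyme genes changed too. Of 15 integrin and adhesion genes, 8 rose and 1 fell. Itga1, the collagen-binding CD49a, rose by 2.00 ± 0.23 (1.81 counted from background), Itgb1 by 1.73 ± 0.18 and Itgb3 by 1.07 ± 0.12, while Itga4 fell by 0.72, with its arrays overlapping. Of 15 genes for selectin ligands and sialylation, 3 rose and 5 fell, with a median of −0.10. Over all genes 15.8% rose and 12.8% fell, so the rises were near the share of all genes. St6gal1, which caps N-glycans with alpha-2,6 sialic acid, had 8.88, 8.86, 8.27 and 8.95 in Stat5ca arrays, against 11.02, 10.81, 11.17 and 10.86 in naive arrays (−2.22 ± 0.20, adjusted p = 1.93e-06). St8sia1 fell by 1.55, whereas the alpha-2,3 sialyltransferase genes St3gal6 and St3gal4 rose by 1.28 ± 0.10 and 0.91 ± 0.11. St6gal1 was lower than in transferred control cells as well (−1.42 ± 0.25; 10.25 and 10.08, adjusted p = 0.000961).

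Of 22 cytokine receptor genes, 9 were higher and 7 lower (15.8% and 12.8% of all genes). Il12rb2, the chain that makes T cells sensitive to IL-12, had 11.73, 11.74, 12.36 and 11.77 in Stat5ca arrays, against 7.92, 8.72, 8.99 and 8.58 in naive arrays (3.35 ± 0.21, adjusted p = 4.59e-08). Il18r1, a receptor chain for IL-18, rose by 1.36 ± 0.08. Il6st, gp130, the signalling chain of the IL-6 receptor, had 9.81, 9.95, 9.71 and 9.89 in Stat5ca arrays, against 12.40, 12.10, 12.52 and 12.10 in naive arrays. It fell by 2.44 on the log2 scale (SE 0.13, adjusted p = 1.23e-08), and its partner Il6ra by 1.58 (SE 0.15, adjusted p = 2.13e-06). Il6st (−1.41 ± 0.16) and Il6ra (−1.20 ± 0.18) were lower than in transferred control cells too. Ifngr2, a chain of the interferon-gamma receptor, fell by 1.24, and Tgfbr2 by 0.66.

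Costimulatory receptor genes rose in 7 of 13 cases and fell in 1 (15.8% and 12.8% of all genes). Cd28 had 12.60, 12.42, 12.46 and 12.46 in Stat5ca arrays, against 10.83, 10.59, 10.45 and 10.66 in naive arrays (1.85 ± 0.09, adjusted p = 5.89e-09). Slamf7 (2.18 ± 0.30), Tnfsf14 (1.65 ± 0.15), Slamf1 (1.57 ± 0.16), Tnfrsf18 (1.46 ± 0.11) and Tnfrsf9, 4-1BB (1.32 ± 0.11), rose, and Tnfrsf25 fell by 0.83. Of 13 inhibitory receptor genes, 5 rose and 1 fell (15.8% and 12.8% of all genes). Tigit (1.63 ± 0.24), Cd160 (1.35 ± 0.15) and Ctla4 (1.07 ± 0.23) rose and Btla fell by 0.39. Without naive arrays 34 and 36, 8 of the 13 rose, and without naive arrays 33 and 35, 5 rose and 4 fell. The other rises, Entpd1 and Lilrb4a, had naive values high in arrays 34 and 36 (for Entpd1, 7.23, 10.98, 7.88 and 10.94). The exhaustion-linked genes Pdcd1 and Lag3 were at 7.66 ± 0.13 and 8.03 ± 0.27 in Stat5ca cells, against 7.59 ± 0.29 and 7.96 ± 0.30 in naive cells, and were not called. Both were lower than in Stat5ca cells at 72 h, Lag3 by −3.16 ± 0.23 (72 h arrays 11.12 and 11.26) and Pdcd1 by −1.56 ± 0.36 (9.20 and 9.24), which lost its call without 72 h array 10 (−1.54, adjusted p = 0.0555).

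Cell division genes were higher, and how much depended on which naive arrays were used. All 22 measured mitosis genes rose, with a median of 1.58, and 22 of 23 DNA replication genes rose, with a median of 0.96. Over all genes 15.8% rose. Mean mitosis levels were 9.68, 9.79, 9.85 and 9.80 in Stat5ca arrays, against 7.15, 9.08, 7.55 and 9.00 in naive arrays. Naive arrays 34 and 36, which had the high myeloid markers, also had the high mitosis levels. Without them the mitosis median was 2.44 and 22 genes rose; without arrays 33 and 35 it was 0.72 and 19 rose. For DNA replication these medians were 1.10 and 0.81, with 21 genes higher in each. The part of other cells in the naive levels was not tested.

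Among replication genes, Pcna, the sliding clamp, had 12.98, 12.98, 13.11 and 13.12 in Stat5ca arrays, against 11.93, 12.13, 12.15 and 11.99 in naive arrays, and its naive arrays stood close together (adjusted p = 2.6e-06). The primase gene Prim1 rose by 1.24 ± 0.12 and Rfc3 by 1.19 ± 0.11. Among mitosis genes, Top2a rose by 2.41 ± 0.45, and by 1.34 without naive arrays 33 and 35. Mki67 rose by 2.18 ± 0.66 but was not called without those arrays (0.52, adjusted p = 0.108). Of 17 genes of G1 cyclins and their inhibitors 10 rose (15.8% of all genes rose). The inhibitor gene Cdkn2c (1.92 ± 0.17) and the kinase gene Cdk6 that it opposes (1.74 ± 0.13) rose together. Set against transferred control cells, 21 of 23 replication genes were higher, with a median of 0.86, and 8 of 22 mitosis genes. Over all genes 16.9% were higher. These calls rest on 2 control arrays, 30 and 32, with mean replication levels of 8.85 and 9.13 and mean mitosis levels of 8.54 and 9.17. The difference of Rrm2 was 0.52 without control array 30 and 1.56 without control array 32. Against Stat5ca cells at 72 h, where mean mitosis levels were 11.17 and 10.71, 9 of 22 mitosis genes were lower, with a median of −1.24. Over all genes 12.7% were lower in that contrast.

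Survival genes rose on both sides of the balance. Of 11 measured genes of the BCL2 family 7 rose and 1 fell (15.8% and 12.8% of all genes). Besides Bcl2 and Bcl2l1, the pro-apoptotic Bcl2l11, BIM, had 11.90, 11.72, 12.13 and 11.84 in Stat5ca arrays, against 9.79, 9.94, 10.15 and 9.80 in naive arrays (1.98 ± 0.15, adjusted p = 2.23e-07). Bak1 rose by 0.77 ± 0.11, and the pro-apoptotic Bmf fell by 0.53. Of 15 measured genes of quiescence factors, 5 rose and 2 fell (15.8% and 12.8% of all genes), with a median of 0.08. The anti-proliferative gene Tob1 rose by 1.73 ± 0.10.

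Interferon-stimulated genes fell. Of 22 measured, 15 fell and 7 were not called (12.8% of all genes fell), with a median of −0.71. Oas2, an antiviral oligoadenylate synthetase, had 8.94, 8.85, 8.24 and 8.96 in Stat5ca arrays, against 11.36, 10.92, 11.73 and 10.85 in naive arrays. The groups did not overlap (−2.47 ± 0.20, adjusted p = 6.85e-07). Ifit1 had 9.32, 9.38, 8.93 and 9.51 in Stat5ca arrays, against 11.39, 10.96, 12.04 and 10.86 in naive arrays (−2.03 ± 0.22), and Ifit3 fell by 1.86 on the log2 scale (SE 0.21). Without naive arrays 33 and 35, 11 fell and 1 rose. Oas3, Mx1 and Rsad2 were not called. Ifitm1, an interferon-inducible membrane protein gene outside the list, instead rose by 3.76 ± 0.51, with 13.91 to 14.09 in Stat5ca arrays, against 9.00, 11.40, 9.24 and 11.15 in naive arrays. Against transferred control cells, 7 of the 22 were lower and 1 higher (8.46% and 16.9% of all genes). Oas2 differed by −1.86 ± 0.25.

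Immediate-early genes, which respond within minutes to receptor signals and to handling, rose in 16 of 20 cases and fell in 1. Over all genes 15.8% rose and 12.8% fell. The median of the immediate-early genes was 1.17. Nr4a1 had 12.83, 12.78, 11.60 and 12.85 in Stat5ca arrays, against 9.95, 10.75, 9.07 and 10.97 in naive arrays (2.33 ± 0.38, adjusted p = 0.000362). Stat5ca array 13 was the lowest of its group for Nr4a1, Atf3, Fos and Egr1. Nr4a2 (2.64 ± 0.34), Nr4a3 (2.46 ± 0.27), Atf3 (2.39 ± 0.34) and Dusp5 (2.24 ± 0.14) rose too. Relative to transferred control cells, 2 of the 20 were called higher, Dusp2 and Dusp5, and 3 lower (16.9% and 8.46% of all genes). Of these, Dusp5 was 0.84 ± 0.17 higher and lost its call without control array 30 (0.45, adjusted p = 0.085). Time from the animal to lysis is not in the labels, and its part was not tested.

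In a list of S100, annexin, galectin and related genes, 12 of 17 rose, with a median of 0.84 (15.8% of all genes rose). Of these genes 15 rose without naive arrays 34 and 36, while 11 rose and 2 fell without naive arrays 33 and 35. Anxa1 differed by 2.85 in the first case and by −1.89 in the second. S100a4 had 11.11, 11.48, 11.64 and 11.52 in Stat5ca arrays, against 8.52, 8.87, 9.42 and 8.75 in naive arrays (2.55 ± 0.29, adjusted p = 1.76e-05). S100a6 rose by 3.41 ± 0.45, Ahnak by 2.36 ± 0.13 and Lgals1, galectin-1, by 1.45 ± 0.13. S100a4 was higher than in transferred control cells by 1.99 with an adjusted p of 0.00111.

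Energy and growth genes rose by smaller amounts. Over all genes 15.8% rose. Of 22 oxidative phosphorylation genes 19 rose, with a median of 0.46; Ndufb8 of complex I rose by 0.82 ± 0.09. Ribosome biogenesis genes rose in 12 of 20 cases, with a median of 0.41 and Nop58 up by 0.90 ± 0.12. Of 14 glycolysis genes 7 rose, Pfkp by 1.24 ± 0.09. Against transferred control cells, 17 of 22 oxidative phosphorylation genes and 14 of 20 ribosome biogenesis genes were higher (16.9% of all genes). Their medians were 0.46 and 0.54, and that of the 12 T-cell identity genes was 0.65, with 10 higher. The part of other cell types in this contrast was not tested. Against Stat5ca cells at 72 h, 9 of 14 glycolysis genes were lower, with a median of −0.79, and 15 of 16 sterol synthesis genes, with a median of −1.31 (12.7% of all genes were lower).

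A few large changes fell outside the lists. Lrrc32, GARP, a surface anchor of latent TGF-beta best known from regulatory T cells, had 11.94, 11.73, 12.03 and 11.75 in Stat5ca arrays, against 7.47, 7.72, 7.57 and 7.70 in naive arrays (4.25 ± 0.11, adjusted p = 7.33e-12). It was higher than in transferred control cells by 3.85 ± 0.14 (7.94 and 8.08), and than in Stat5ca cells at 72 h by 2.13 ± 0.14 (9.96 and 9.51). Foxp3, the defining gene of regulatory T cells, was at 8.24 ± 0.07 in Stat5ca cells and 8.14 ± 0.13 in naive cells and was not called. Of the genes that fell, Trat1, a T-cell receptor adaptor, had 5.03 to 5.74 in Stat5ca arrays, all under background, against 9.24, 8.81, 9.41 and 8.42 in naive arrays (−3.62 ± 0.28, −1.64 counted from background). Dntt, the terminal transferase of lymphoid precursors, fell by 3.05 on the log2 scale (−2.18 counted from background), Atp1b1, a sodium pump subunit, by 2.91 and Trib2 by 2.65.

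Bpifa2, a salivary secretory gene, had the lowest difference of all called genes; neither cell type is known for it. It had 6.34, 6.40, 6.63 and 6.32 in Stat5ca arrays, against 12.90, 12.87, 11.57 and 13.60 in naive arrays (−6.31 ± 0.82, −5.41 counted from background, adjusted p = 5.56e-05). Transferred control array 30 had 12.59 and array 32 had 6.68. Another 6 salivary genes, chosen after these values were seen, were uneven too: Car6 had 6.35, 6.07, 6.29 and 6.26 in Stat5ca arrays, against 10.93, 7.49, 6.70 and 9.41 in naive arrays. Scgb2b27 stood at 11.62 in naive array 33 and at 4.88 to 6.58 in the other naive arrays. The source of these transcripts was not tested.

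Markers of other cell types were uneven. No macrophage and monocyte marker of 23 was called with limma, and none had an unadjusted p under 0.05; their median was 0.30. The same held for 13 neutrophil markers, whose median was −0.59. Without naive arrays 34 and 36, 19 macrophage markers and 10 neutrophil markers were higher in Stat5ca cells; without arrays 33 and 35, 19 and 12 were lower. The macrophage gene C1qb had 12.39, 12.35, 11.36 and 12.40 in Stat5ca arrays, against 9.13, 13.27, 10.13 and 13.34 in naive arrays, and lay above background in all of them. Red cell genes averaged 9.09, 9.23, 7.57 and 9.21 in Stat5ca arrays, against 7.32, 8.47, 7.83 and 8.58 in naive arrays. Dendritic cell markers averaged 9.34 to 9.47 in Stat5ca arrays and 8.34 to 9.60 in naive arrays. In transferred control arrays the macrophage means were 12.24 and 12.05. Of the 23 macrophage genes, 8 were lower in Stat5ca cells than in control cells (median −2.10), beside 8.46% of all genes. Of 12 T-cell identity genes, 10 were higher (median 0.65), beside 16.9% of all genes. The part of other cell types in the difference from control cells was not tested.

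**Figure D4:**
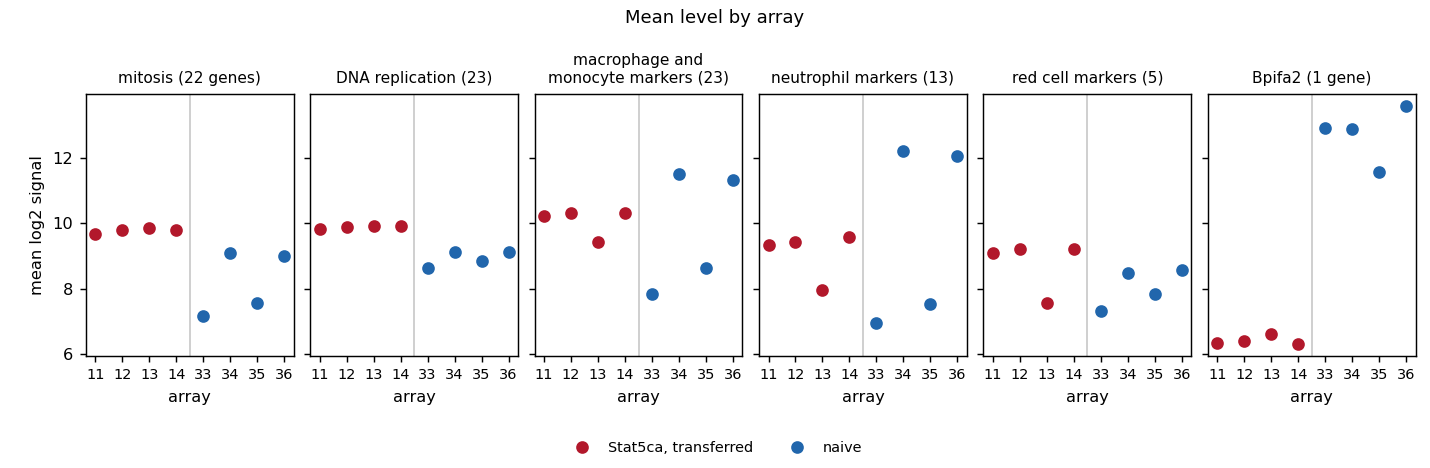
Mean log2 signal of the mitosis, DNA replication, macrophage and monocyte, neutrophil and red cell lists, and the signal of Bpifa2, in each transferred Stat5ca array (left) and each naive array (right). Naive arrays 34 and 36 lie above naive arrays 33 and 35 for the mitosis, macrophage and neutrophil means, and Stat5ca array 13 is the lowest of its group for the macrophage, neutrophil and red cell means.

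The levels of the other groups stand beside these results. Transferred control cells and naive cells, like Stat5ca cells at 72 h and naive cells, were compared against the same naive arrays, so the values are given side by side only. Klra5 was under background in every array of the other 3 groups. Relative to naive cells, Gzma differed by 3.32 in transferred Stat5ca cells, −0.83 in transferred control cells and −1.11 in Stat5ca cells at 72 h. For Gzmb these values were 5.63, 2.34 and 5.18. Cish differed by 3.53, 0.74 and 1.60, and Lrrc32 by 4.25, 0.39 and 2.12. Tbx21 differed by 3.29, 2.58 and 2.28, and Ccr9 by −4.14, −2.55 and −3.27. Lef1 differed by −1.62 and −1.43 in the transferred groups and by 0.02 at 72 h. Over all genes, 5061 (25.4%) differed between transferred Stat5ca and transferred control cells and 4242 (21.3%) between transferred Stat5ca cells and Stat5ca cells at 72 h. Differences of at least 2-fold made up 4.74% and 4.98% of genes. Each of the related groups had 2 arrays: without control array 32 or 30 the first count was 2715 or 3031, and without 72 h array 10 or 9 the second was 2144 or 2574.

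**Figure D5:**
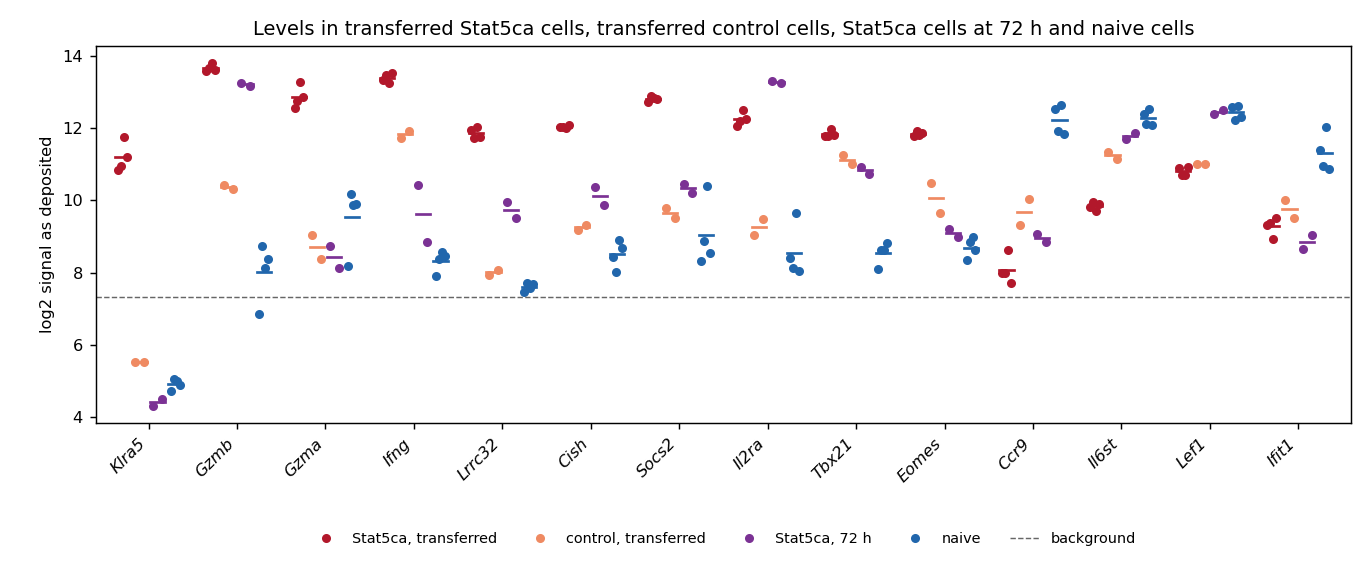
Log2 signal of 14 genes in every array of transferred Stat5ca cells, transferred control cells, Stat5ca cells at 72 h and naive cells, from left to right, with group means as lines. Klra5, Gzma, Cish and Socs2 are highest in transferred Stat5ca cells, Gzmb and Il2ra are also high at 72 h, and Ccr9 is highest in naive cells.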

How the data were processed

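RNA of purified mouse CD8 T cells was measured on Affymetrix gene arrays. The deposited values are log2 signals for 35557 probe sets, used as deposited. That they are log2 was read from their range, 3.13 to 14.9 over the 8 arrays. Affymetrix Expression Console is named per the submitters' processing notes. Its version and the summarization and normalization steps were not stated in what was available, so how they affect small or uneven shifts between arrays is not known. Array medians were 7.74 to 7.89 on the 8 arrays. Precision is limited by how few arrays there were.

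Of the probe sets, 21789 carried 1 gene, 1621 several and 12147 none. The brightest probe set stood for each of 19938 genes, of which 999 had more than 1. A linear model was fitted to the 16 TCRP1A arrays with limma 3.58.1 in R 4.3.3 (lmFit, eBayes), without covariates. T-betKO arrays were left out of this fit. P-values were adjusted over all genes. Errors are SE for differences and SD for means. Tables and figures used Python 3.11.15, pandas 2.3.3, numpy 2.4.6 and matplotlib 3.10.9.

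The comparison, its gene lists and its tests were chosen with earlier results of these data known. Named genes were the 12 largest rises and 12 largest falls among called genes whose arrays did not overlap and whose higher mean was over background, up to 4 called members of each list in each direction, members of lists of at most 12 genes, defining markers of other cell types, and Stat5a, Stat5b, Tbx21 and Eomes. Other list members named were chosen after their values were seen, among them Prf1, Gzmk, Ctsw, Nkg7, Klrd1, Klre1, Klrg1, Socs1, Socs3, Pim1, Myc, Prdm1, Id2, Irf4, Hopx, Bach2, Cx3cr1, Tgfbr2, Il18r1, Tnfrsf9, Tnfrsf18, Pdcd1, Lag3, Ctla4, Pcna, Lgals1 and Bcl6. The alternatives were a 2-fold minimum, another variance model, all 19 arrays, only the compared groups, quantile normalization, median centring, mean probe sets, array weights, RIN, myeloid or sex-gene covariates, no dim genes, and leaving out arrays. Promoter sequences came from RefSeq (GRCm38.p6) and were searched for TTCNNNGAA.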

Additional observations from a re-analysis of the deposited data

Results flagged for a closer look

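Of 546 groups of 4 arrays tested over the named genes, 50 held a sample far from the other 3, where chance alone flags about 1 in 20. Array 13 was the distant sample in 38 of these, all within the Stat5ca group, and values are log2 signals. Array 13 had less signal than the other 3 Stat5ca arrays for the macrophage and dendritic cell genes Adgre1 (9.265), Adgre4 (8.402), C1qa (9.168), C1qb (11.36), C1qc (10.56), Cd68 (10.77), Csf1r (10.16), Mrc1 (8.667), Slc40a1 (10) and Xcr1 (10.15). The red cell genes Alas2 (8.645) and Slc4a1 (8.874) were low there as well. So were the T-cell, signalling and other genes Atf3 (10.26), Ccr7 (12.58), Cd5 (10.84), Cxcr4 (11.11), Hspa1a (7.973), Hsph1 (9.578), Ifngr2 (10.14), Igfbp4 (7.992), Il2 (6.02), Il6ra (9.692), Il7r (11.36), Nr4a1 (11.6), Oas2 (8.243), Serpinb1a (7.493), Slc6a19 (8.036), St6gal1 (8.275) and Tnf (10.75). Array 13 had more signal than the other 3 for Ifitm1 (14.09), Il12rb2 (12.36), Il18rap (11.46), Osm (10.58) and Siglech (9.54). It was also high for the Y-linked genes Eif2s3y (10.44), Kdm5d (9.247) and Uty (9.218) and low for Xist (10.09).

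Another 12 distant samples lay elsewhere. Stat5ca array 11 was high for Col3a1 (8.157), and Stat5ca array 14 was low for Foxp3 (8.135). Naive array 33 was low for Bcl2l1 (8.103), Cd79b (9.58), Flt3 (8.226), Gzma (8.176) and Myb (9.795). Naive array 35 was high for Eif2s3y (7.874), H2-Oa (10.15) and Pfkp (10.94), and low for St6galnac3 (7.044). Naive array 36 was low for Btla (9.792). The cause of these distances was not tested.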

How the results depend on the processing

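The count of genes that differed between transferred Stat5ca and naive cells, 5699, lay between 4363 and 6381 when single arrays were left out, and within 1.5 times under the other alternatives run, apart from a 2-fold minimum, which left 644. Against transferred control cells (5061) it was 946 with the 2-fold minimum, 3058 with the myeloid marker level as a covariate, and 2715 to 4471 without single arrays; the lowest values were 2715 without control array 32 and 3031 without control array 30. Against Stat5ca cells at 72 h (4242) it was 992 with the 2-fold minimum, 6787 with array weights and 2144 to 3845 without single arrays, lowest without 72 h array 10 (2144) and array 9 (2574). Where arrays are left out, fewer samples bear on the test; other causes were not tested. Of 181 called named genes, 78 fell short of 2-fold, and at most 21 lost their call under any other alternative run, with no change of direction. Named genes that were not called and changed sign were myeloid and neutrophil genes for the most part. Without naive arrays 33 and 35 these were Adgre1 (−1.40), Adgre4 (−1.96), C1qa (−1.27), C1qc (−1.30), Cd68 (−1.10), Csf1r (−1.57), Fcer1g (−1.13), H2-Eb1 (−0.52), Mrc1 (−1.89), Slc40a1 (−1.49) and Tyrobp (−1.16). Without naive arrays 34 and 36 they were Cd163 (0.91), Cd244a (0.96), Ciita (0.47), Hspa1a (1.08), Ly6g (2.02), S100a8 (2.91) and S100a9 (2.48). No paired analysis was possible because the groups compared share no replicate numbers. Depth in the sense of counts does not apply; genes under the background of 7.33 have only a bound.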

Other observations

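Of 8 measured GIMAP genes, GTPases of lymphocyte survival, 5 were called higher in transferred Stat5ca cells than in naive cells (15.8% of all genes). Gimap9 was among them (1.01 ± 0.13 on the log2 scale, SE). Of the 8, 3 rose and 1 fell without naive arrays 34 and 36, and 7 rose without naive arrays 33 and 35. All 8 were called higher than in transferred control cells, with a median of 0.66, where 16.9% of all genes were higher. The 12 T-cell identity genes had a median of 0.65 in that contrast, with 10 higher. It rests on 2 control arrays. Of 9 heat-shock chaperone genes 8 rose against naive cells (15.8% of all genes rose). Among them were the mitochondrial Hspe1 (0.99 ± 0.13) and the endoplasmic reticulum chaperone gene Hspa5 (0.88 ± 0.15). Of 8 measured intracellular serpin genes, 2 rose and 1 fell (15.8% and 12.8% of all genes). Serpinb9, an inhibitor of granzyme B, and Serpinb6b rose by 0.85 ± 0.17 and 0.95 ± 0.20. Serpinb1a differed by −0.77 without naive arrays 34 and 36, and by −3.08 without naive arrays 33 and 35. Gata3, a factor of type 2 T cells that CD8 T cells also express, rose by 1.31 ± 0.20, while Il4, Il5, Il17a and Il21 lay under background in both groups.

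MHC class I presentation genes moved by 0.54 or less in either direction, and B2m differed by 0.02 ± 0.06. Of 13 such genes 2 were higher and 3 lower, and the higher ones were near the share of all genes (15.8% higher, 12.8% lower). The 3 lower ones lost their calls without naive arrays 33 and 35. Sterol synthesis genes were called higher in 4 of 16 cases against naive cells, and these calls were lost without naive arrays 33 and 35.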
